A study of Mus musculus with 4 samples.

Results

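The genes of the T cell receptor complex and its coreceptors were examined in macrophage preparations from a mouse model of neuroblastoma. The 10 genes were chosen by name, with earlier results of these data known, although no measured value enters the rule. They are the invariant CD3 chains Cd3d, Cd3e and Cd3g, the zeta chain Cd247, the constant genes of the receptor chains Trac, Trbc1 and Trbc2, and the coreceptors Cd4, Cd8a and Cd8b1. Each symbol matched exactly 1 of the 54532 genes in the deposited count table. In libraries prepared from cells sorted on macrophage markers, all receptor transcripts other than Cd4 were rare, with counts between 0 and 55 in each library of 20755886 to 23518045 counts. Of the 10, Cd3d, Cd3e, Cd3g, Trbc2, Cd4 and Cd8b1 (6 genes) passed the test as higher in libraries labelled SYK KO, 0 passed as lower, and Cd247, Trac, Trbc1 and Cd8a did not pass (edgeR quasi-likelihood test, adjusted p under 0.05, which called 22.7% of all genes as higher). Of these 6, all but Cd4 had passed the filter on low counts only through the SYK KO libraries, so the count does not support a difference of the set as a whole. At an unadjusted p under 0.05, which 27.8% of all genes passed as higher, there were 7 higher and 0 lower, and DESeq2, which called 19.5% of genes as higher, called 4 higher and 0 lower.

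The study placed 4000000 NB9464 cells, a mouse neuroblastoma line with amplified MYCN, under the skin of C57BL/6 mice of a few weeks of age, and tumour-associated macrophages were collected on day 40 without any treatment of the mice. The 2 libraries of the group SYK WT (M7 and M8) came from Syk MC-WT mice, and the 2 libraries of the group SYK KO (M9 and M10) from Syk MC-KO mice, in which floxed Syk is removed in myeloid cells by a Cre recombinase under the lysozyme M (Lyz2) promoter. Macrophages were taken with magnetic beads against CD11b and F4/80, so T cells were not selected for, and which cells gave each transcript cannot be read from the counts. Nothing in the labels says that each library was a separate mouse, so the p-values measure the spread between these samples, which may be technical. The labels also describe the RNA as extracted from bone marrow-derived macrophages, and the title of the series names an adoptive transfer, so the source of the cells is described in more than one way.

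Relative to all genes, the targeted gene went against its labels. Syk, the tyrosine kinase that the cross removes, had counts of 765 and 569 in M7 and M8 and of 4033 and 2944 in M9 and M10. Its normalized level was 25.5 ± 3.35 CPM (counts relative to the TMM-scaled size of the library) in SYK WT and 178 ± 25.0 in SYK KO (SD, n = 2 each), a log2 fold change of 2.80 (SE 0.19, adjusted p = 0.000674, edgeR quasi-likelihood test). With 10 macrophage marker genes in place of all genes as the scale, the log2 fold change of Syk was 0.09 (SE 0.50, adjusted p = 0.870, same test). With 6 genes shared by leukocytes it was -0.39 (SE 0.30, adjusted p = 0.229). Relative to those transcripts, then, Syk did not pass in either direction. A gene-level count includes exons outside the floxed part and so does not read the deletion itself. Lyz2, whose promoter drives the Cre, had counts of 8109 and 5115 in M7 and M8 and of 178 and 371 in M9 and M10. Unlike Syk, Lyz2 is not the gene that the cross removes, and its low counts are not set against the labels here. Whether they come from the Cre was not tested. Because of Syk, all directions given here refer to the libraries labelled SYK KO against those labelled SYK WT.

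The libraries also differed in what else they held. Summed over 10 macrophage markers, the level was 1131 and 784 CPM in M7 and M8 and 8843 and 5603 CPM in M9 and M10, while 8 fibroblast markers summed to 12549 and 14444 CPM in M7 and M8 and to 4060 and 4959 CPM in M9 and M10. Mitochondrial transcripts took 2.20% and 2.34% of counts in the SYK WT libraries and 6.00% and 15.9% in the SYK KO libraries. Of 16451 genes tested, 39.4% were called at an adjusted p under 0.05, 22.7% as higher in SYK KO and 16.7% as lower, so a call is common in these data. In bulk RNA, fewer cells of a type and less RNA per cell cannot be told apart.

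The T cell receptor binds antigen through a pair of variable chains, usually alpha and beta, whose constant regions are encoded by Trac and by Trbc1 or Trbc2. These chains have almost no cytoplasmic part, and the signal enters the cell through the CD3 gamma, delta and epsilon chains and the zeta chain, whose cytoplasmic tails carry the tyrosine motifs called ITAMs. The Src-family kinase Lck phosphorylates the ITAMs and Zap70, a relative of Syk, then docks on them. Cd4 binds MHC class II and Cd8 binds MHC class I, and both bring Lck to the receptor. In mice, Cd4 is also transcribed in some macrophages and dendritic cells, Cd8a in one subset of dendritic cells and in some NK and innate lymphoid cells, and the zeta chain in NK cells. The rearranged receptor genes and CD3 delta, epsilon and gamma are, by contrast, the classical markers of T cells.

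In the GENCODE M21 annotation of GRCm38, the assembly that the files name mm10, the 3 CD3 genes lie together on chromosome 9 within 40.1 kb. Cd3g (ENSMUSG00000002033, chr9:44969572-44980431, minus strand) and Cd3d (ENSMUSG00000032094, chr9:44981786-44987339, plus strand) start 1354 bases apart and run in opposite directions, and Cd3e (ENSMUSG00000032093, chr9:44998740-45009627, minus strand) follows. The beta constant genes Trbc1 (ENSMUSG00000076490, chr6:41538218-41539881, plus strand) and Trbc2 (ENSMUSG00000076498, chr6:41546730-41548352, plus strand) are neighbours 6848 bases apart. Cd8b1 (ENSMUSG00000053044, chr6:71322788-71337494, plus strand) and Cd8a (ENSMUSG00000053977, chr6:71373427-71379173, plus strand) are 35932 bases apart, and Cd4 (ENSMUSG00000023274, chr6:124864692-124888221, minus strand) lies elsewhere on that chromosome. Trac (ENSMUSG00000076928) lies at chr14:54220521-54224206 on the plus strand and Cd247 (ENSMUSG00000005763) at chr1:165788681-165877277 on the plus strand. Counts are per gene, over its exons.

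The coding bases of exons 2 to 4 of Trbc1 and Trbc2 are printed because the largest contrast among the receptor genes fell between these near-identical neighbours, and how far reads can tell them apart bears on it. The reference sequences were read from the GENCODE M21 transcripts, 5′ to 3′, and capitals mark the bases that differ between the genes.
Trbc1 coding exons 2 to 4: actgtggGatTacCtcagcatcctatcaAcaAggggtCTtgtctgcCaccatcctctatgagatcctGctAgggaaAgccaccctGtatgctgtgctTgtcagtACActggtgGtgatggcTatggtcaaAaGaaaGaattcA
Trbc2 coding exons 2 to 4: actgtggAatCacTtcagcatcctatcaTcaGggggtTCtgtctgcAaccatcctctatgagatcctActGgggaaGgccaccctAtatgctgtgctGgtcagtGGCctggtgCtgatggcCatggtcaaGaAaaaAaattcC
These 143 bases, which lie between 41539114 and 41539662 on chromosome 6 for Trbc1 and between 41547610 and 41548178 for Trbc2 (GRCm38, plus strand), differ at 22 positions. Exon 1, which is not printed, is 375 bases long and differs at 1 base. Over all 518 coding bases the genes were 95.6% identical, and 110 of the 369 stretches of 150 bases in Trbc1, 29.8%, were identical in Trbc2. The labels give paired reads of 150 bases, so a read inside exon 1 that misses the differing base, with a mate that also does, could belong to either gene. Salmon, which the study's methods name for quantification, shares out ambiguous reads by estimate, and the counts of the pair are uncertain to that extent.

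Of the beta constant genes, Trbc1 had more counts than Trbc2 in both SYK WT libraries, and Trbc2 had more than Trbc1 in both SYK KO libraries. Trbc2 had 1 count each in M7 and M8, against 37 in M9 and 55 in M10. Both SYK WT libraries were thus at or under 3 counts, and both SYK KO libraries lay far above them. Its level was 0.0386 ± 0.00299 CPM in SYK WT and 2.40 ± 0.849 in SYK KO (SD, n = 2 each), with a log2 fold change of 5.77 (SE 0.83, adjusted p = 0.00375). Pooled over each group's counts the ratio was 61.4, with a 95% exact interval of 16.5 to 515 that covers counting error only. Trbc1 ran from 25 in M7 and 14 in M8 to 14 in M9 and 8 in M10, with overlapping counts. Its log2 fold change of -0.40 (SE 0.69, adjusted p = 0.674) did not pass the test.

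A share within a library does not depend on how libraries are scaled. Trbc1 made up 96.2% of the 26 beta constant counts in M7 (95% exact binomial interval 80.4 to 99.9%) and 93.3% of the 15 in M8 (68.1 to 99.8%). In M9 it made up 27.5% of 51 counts (15.9 to 41.7%) and in M10 12.7% of 63 (5.65 to 23.5%). No interval of a SYK WT library met one of a SYK KO library. The mean share was 94.7 ± 1.99% in SYK WT and 20.1 ± 10.4% in SYK KO, a difference of -74.7 percentage points, at the exact permutation p of 0.333 that is the smallest possible with 2 libraries against 2. Added together, the beta constant genes reached 26, 15, 51 and 63 counts in M7, M8, M9 and M10, or 0.779 ± 0.239 CPM in SYK WT and 2.95 ± 0.677 CPM in SYK KO (exact p = 0.333). The sum, which does not depend on how shared reads were split between the neighbours as long as none was dropped, was thus 3.79-fold higher in SYK KO, a smaller difference than for Trbc2 by itself. The assignment of shared reads and the makeup of the T cells were not tested as sources of this difference in share.

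**Figure D1:**
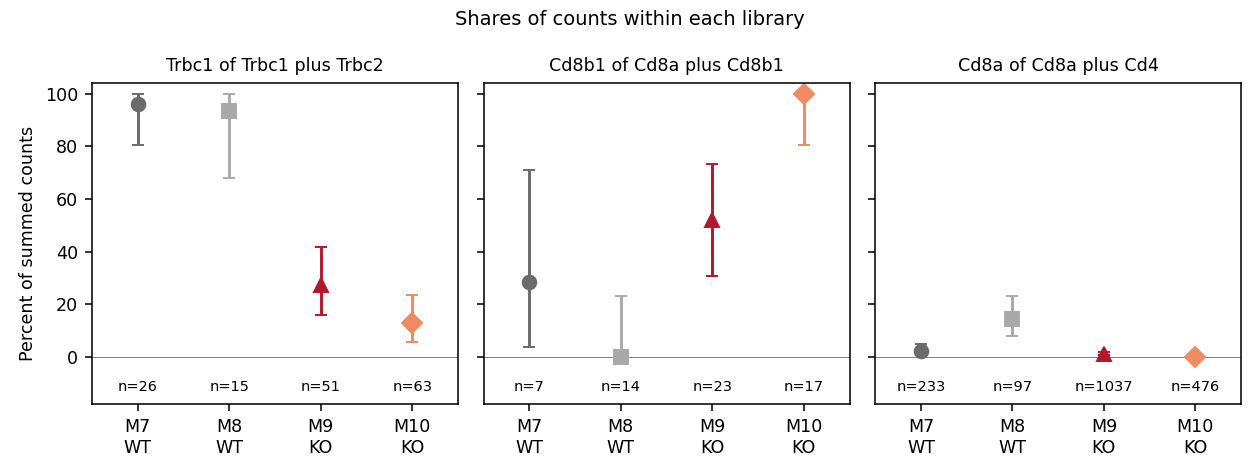
Share of Trbc1 among beta constant counts, of Cd8b1 among Cd8 counts and of Cd8a among Cd8a and Cd4 counts, in percent of the summed counts (n under each point), 1 point per library with its 95% exact binomial interval. Trbc1 takes over 90% in both SYK WT libraries and under 30% in both SYK KO libraries, while the Cd8 shares differ widely between libraries of the same group.

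The alpha constant gene Trac differed less. It had 14 and 8 counts in M7 and M8 and 25 and 26 counts in M9 and M10, so that both SYK KO libraries lay above both SYK WT libraries. The level was 0.418 ± 0.131 CPM in SYK WT and 1.32 ± 0.144 in SYK KO, with a log2 fold change of 1.64 (SE 0.65, adjusted p = 0.0894) that did not pass. Because Trac and the Trbc genes encode the chains of one receptor, their levels per length can be set beside each other: Trac stood at 0.447 CPM per kb of exon in SYK WT and 1.41 in SYK KO, Trbc1 at 0.989 and 0.745, and Trbc2 at 0.0557 and 3.46.

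All 3 CD3 genes were called higher in SYK KO, from a very low base. They had passed the filter on low counts only through the SYK KO libraries, so their shared direction is not read as a result. Cd3e, the epsilon chain present in every receptor complex, had 2, 1, 30 and 41 counts in M7, M8, M9 and M10. It was at 0.0568 ± 0.0228 CPM in SYK WT and 1.85 ± 0.550 in SYK KO, a log2 fold change of 4.88 (SE 0.81, adjusted p = 0.00605) and a pooled ratio of 31.6 (95% exact interval 10.4 to 157). Cd3g, the gamma chain, had 4, 4, 30 and 27 counts, with a log2 fold change of 3.20 (SE 0.70, adjusted p = 0.0142) and a pooled ratio of 9.51 (4.52 to 23.1). Its levels were close within each group, at 0.154 ± 0.0120 CPM in SYK WT and 1.46 ± 0.0104 CPM in SYK KO. Cd3d, the delta chain, had 3, 1, 14 and 11 counts, with a log2 fold change of 2.98 (SE 0.90, adjusted p = 0.0406) and a pooled ratio of 8.35 (2.88 to 33.0). Summed, Cd3d, Cd3e and Cd3g reached 9 and 6 counts in the SYK WT libraries and 74 and 79 in the SYK KO libraries, which is 0.286 ± 0.0594 against 3.95 ± 0.504 CPM, a 13.8-fold difference (exact p = 0.333, the smallest possible). Without M7, or without M8, none of the 3 passed, leaving Trbc2 and Cd4 as the 2 genes called. With library totals alone as the scale, under which 10.2% of genes were higher, Cd3d was the 1 call of the 6 that was lost. By DESeq2's Wald test Cd3d had an adjusted p of 0.142 at a log2 fold change of 3.03.

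The zeta chain did not follow the CD3 chains. Cd247 had 12 and 13 counts in M7 and M8, 17 in M9 and 0 in M10, so the SYK KO libraries fell on both sides of the SYK WT libraries. The log2 fold change was -0.20 (SE 1.30, adjusted p = 0.918), and without M10 it was 0.78. Without M9, which leaves the 0 counts of M10 as SYK KO, Cd247 was called lower (adjusted p = 0.0204). Taken per length, Cd247 made up 40.1% and 54.7% of the summed CD3 and zeta chain level in M7 and M8, 11.6% in M9 and 0% in M10, whereas Cd3e made up 8.72% and 5.50% in M7 and M8 and 26.8% and 41.2% in M9 and M10. Of its 5329 exon bases, 3007 are also exon of Pou2f1, a POU-domain transcription factor gene on the opposite strand. Pou2f1 had 659, 863, 271 and 202 counts and was lower in SYK KO (log2 fold change -1.29, adjusted p = 0.00986). Whether the counting used strand is not given in the sources used here, so reads from the shared bases may belong to either gene. Cd3e shares 135 exon bases with an antisense gene, Gm48719, which had 0 counts in all 4 libraries.

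Taken as a unit, the 7 receptor complex genes summed to 61 and 42 counts in M7 and M8 and to 167 and 168 in M9 and M10. In normalized terms this was 1.97 ± 0.364 CPM in SYK WT and 8.63 ± 0.740 CPM in SYK KO, 4.39-fold apart (exact p = 0.333). At the limit of more than 3 counts, 4 of the 7 genes were seen in M7 and also in M8, against 7 in M9 and 6 in M10. Over all 10 receptor and coreceptor genes, 7 had both SYK KO libraries above both SYK WT libraries, which held for 38.0% of all genes tested, and the median log2 fold change was 2.84 against 0.02 over all genes. The same 5 genes that passed the filter only through the SYK KO libraries are among these 7 and above this median.

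**Figure D2:**
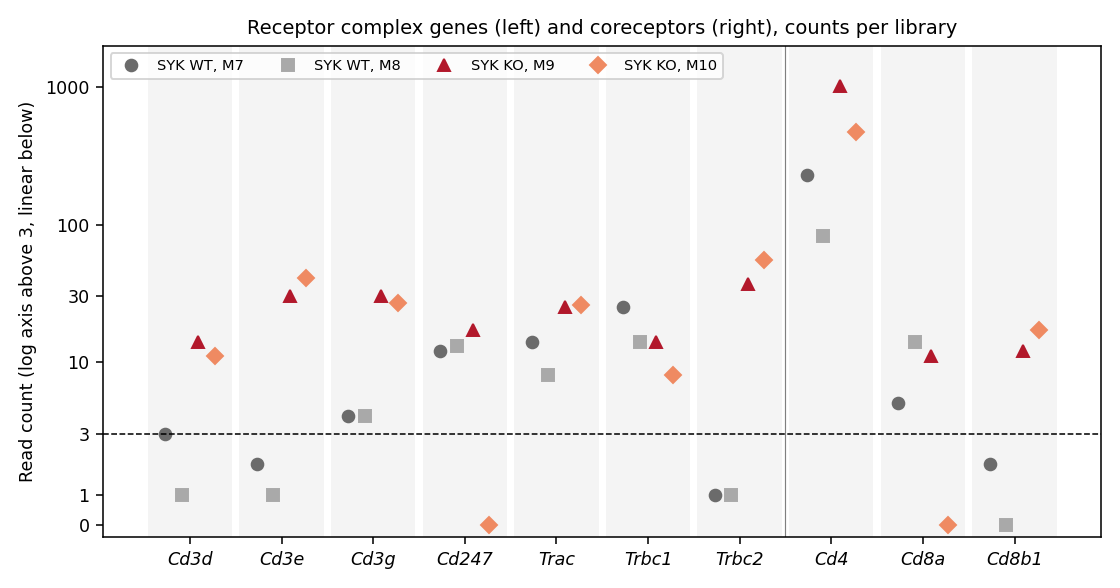
Read count of each receptor and coreceptor gene in each library (vertical axis, linear up to 3 and logarithmic above; the dashed line marks 3 counts), with SYK WT in grey and SYK KO in red. Cd3d, Cd3e, Cd3g and Trbc2 lie at 4 counts or fewer in both SYK WT libraries and at 11 or more in both SYK KO libraries, Trbc1 lies the other way with overlap, and Cd4 stands far above the rest in all 4 libraries.

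The upstream sequences of the CD3 genes are shown because these neighbours were called in the same direction. All had passed the filter on low counts only through the SYK KO libraries, so that shared direction is not read as a result. The 250 bases before each start come from RefSeq on GRCm38.p6, where 5 of the 10 genes had an entry, and they run 5′ to 3′ on the gene's strand. Capitals mark matches, on either strand, to AGGAAG (the core bound by ETS factors, read as CTTCCT on the other strand) and to CANNTG (the E-box bound by E proteins such as Tcf3 and Tcf12).
Cd3g, chr9:44980432-44980681, minus strand: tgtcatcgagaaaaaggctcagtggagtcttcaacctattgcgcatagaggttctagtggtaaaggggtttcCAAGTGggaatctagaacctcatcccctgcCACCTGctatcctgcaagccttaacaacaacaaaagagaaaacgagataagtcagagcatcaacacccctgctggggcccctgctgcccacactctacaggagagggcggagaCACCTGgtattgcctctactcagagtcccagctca
Cd3d, chr9:44981536-44981785, plus strand: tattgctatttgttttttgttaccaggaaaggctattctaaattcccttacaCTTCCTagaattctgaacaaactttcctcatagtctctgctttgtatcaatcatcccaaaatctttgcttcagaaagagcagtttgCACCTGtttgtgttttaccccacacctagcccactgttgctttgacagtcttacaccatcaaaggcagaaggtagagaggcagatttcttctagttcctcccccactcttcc
Cd3e, chr9:45009612-45009861, minus strand: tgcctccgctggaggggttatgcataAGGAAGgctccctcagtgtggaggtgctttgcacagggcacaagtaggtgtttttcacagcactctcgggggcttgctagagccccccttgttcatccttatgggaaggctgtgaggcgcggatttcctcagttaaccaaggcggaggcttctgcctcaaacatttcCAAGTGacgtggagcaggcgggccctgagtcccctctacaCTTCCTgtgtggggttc
The ETS letters occurred 0 times before Cd3g, 1 time before Cd3d and 2 times before Cd3e, and in 29.5% of 32851 upstream regions of that length. The E-box letters occurred 3, 1 and 1 times, and in 66.2% of all regions. The Runx letters TGTGGT (14.0% of all regions) and TATAAA (12.4%) matched in none of the 3 windows. These matches describe the letters only.

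Cd4 had the most counts of the set in every library. Its counts were 228 and 83 in M7 and M8, against 1026 and 476 in M9 and M10, so that both SYK KO libraries lay above both SYK WT libraries even though the libraries within each group differed widely. The level was 5.84 ± 3.49 CPM in SYK WT and 37.9 ± 16.9 in SYK KO, a log2 fold change of 2.69 (SE 0.49, adjusted p = 0.00823). Per length it stood at 1.45 CPM per kb in SYK WT and 9.39 in SYK KO, and it made up 77.0, 59.7, 84.4 and 72.0% of all counts of the 10 genes in M7, M8, M9 and M10. Per kb, Cd4 was 50.4 and 30.6 times the mean of Cd3d, Cd3e and Cd3g in M7 and M8, and 31.5 and 14.5 times in M9 and M10.

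Cd4 moved with macrophage markers. Per 1000 counts of Csf1r, the receptor for the macrophage growth factor CSF-1, there were 58.7 and 37.1 counts of Cd4 in M7 and M8 and 62.0 and 42.1 in M9 and M10. The groups overlapped in this ratio, and the spread within each was larger than the distance between them. With the 10 macrophage markers in place of all genes as the scale, the log2 fold change of Cd4 was 0.00 (adjusted p = 0.998). The part of macrophages, dendritic cells and T cells in the Cd4 counts was not tested.

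The Cd8 chains went separate ways. Cd8b1, the beta chain that marks conventional cytotoxic T cells, had 2, 0, 12 and 17 counts in M7, M8, M9 and M10. It was at 0.0365 ± 0.0516 CPM in SYK WT and 0.754 ± 0.243 in SYK KO, a log2 fold change of 4.12 (SE 1.15, adjusted p = 0.0313) and a pooled ratio of 19.4 (95% exact interval 4.90 to 167). By DESeq2 its adjusted p was 0.0551. Cd8a, the alpha chain, had 5, 14, 11 and 0 counts, and the groups overlapped. Its log2 fold change was -0.44 (SE 1.35, adjusted p = 0.817), and without M8 or without M10 it took the opposite sign, at 0.55 and 0.53, whereas without M9 it was called lower (adjusted p = 0.0472). Cd8b1 made up 28.6% of the 7 Cd8 counts in M7, 0 of 14 in M8, which allows up to 21.4% by the limit of 3 counts and 23.2% by the exact interval, 52.2% of 23 in M9 and 100% of 17 in M10 (95% exact interval 80.5 to 100%). M10 thus held the beta chain without a count of the alpha chain that it pairs with. Against Cd4, Cd8a made up 2.15% of 233 counts in M7, 14.4% of 97 in M8, 1.06% of 1037 in M9 and 0 of 476 in M10, which allows up to 0.630% by the limit of 3 counts and 0.772% by the exact interval. The spread of this last share within SYK WT, 8.29 ± 8.69%, was larger than its difference of -7.76 percentage points from SYK KO (exact p = 0.333). Over the 3 coreceptors the sum was 6.26 ± 3.27 CPM in SYK WT and 38.9 ± 17.0 in SYK KO, 6.22-fold apart (exact p = 0.333), and most of it was Cd4.

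In order of level per kb in SYK WT, Cd4 came first, then Trbc1 (0.989 CPM per kb), Trac (0.447), Cd8a (0.103), Cd247 (0.0907), Trbc2 (0.0557), Cd3g (0.0472), Cd3d (0.0413), Cd8b1 (0.0246) and Cd3e (0.0139). In SYK KO the order was Cd4, Trbc2 (3.46), Trac (1.41), Trbc1 (0.745), Cd8b1 (0.509), Cd3e (0.452), Cd3g (0.448), Cd3d (0.352), Cd247 (0.0774) and Cd8a (0.0734). Neighbours whose libraries overlapped were, in SYK WT, Cd4 with Trbc1, Cd8a with Cd247, Cd3g with Cd3d, Cd3d with Cd8b1 and Cd8b1 with Cd3e, and in SYK KO, Trbc1 with Cd8b1, Cd8b1 with Cd3e, Cd3e with Cd3g and Cd247 with Cd8a. The other neighbours did not overlap, which with 2 libraries each, and with 1 count of Trbc2 in each SYK WT library, is a weak separation.

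Which genes were called depended on the quantity held constant between libraries, though no gene of the set was called in opposite directions. Some genes of the related lists below were. Scaling to the macrophage markers shifted the median log2 fold change over all genes by -2.70, and scaling to 6 genes shared by leukocytes shifted it by -3.18. Under macrophage scaling 0.894% of genes were higher in SYK KO and 86.4% lower; Trbc2 was called higher (log2 fold change 3.30, adjusted p = 0.0290), and Cd247 (-3.15, adjusted p = 0.0147), Trbc1 (-3.10, adjusted p = 0.00967) and Cd8a (-3.45, adjusted p = 0.0128) were lower. Under leukocyte scaling 0.565% of genes were higher and 90.4% lower; Trbc2 had a log2 fold change of 2.80 at an adjusted p of 0.0503, Cd3e of 1.87 at 0.160, and the same 3 genes were lower. Cd3d (0.42 and -0.09), Cd3g (0.54 and 0.06) and Cd4 (0.00 and -0.50) then lay near 0 and did not pass. Trac was -0.98 and -1.49 and did not pass either. Cd8b1 was 1.73 and 1.19, without passing. In proportion to macrophage and to leukocyte transcripts, then, the only call as higher was Trbc2 under macrophage scaling. Trbc2 had passed the filter on low counts only through the SYK KO libraries. So had Cd3e, Cd8b1 and Cd3g, whose positive fold changes did not pass and are not read as a result. The sum of the 7 receptor genes was lower, at log2 ratios of -0.52 and -1.02.

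**Figure D3:**
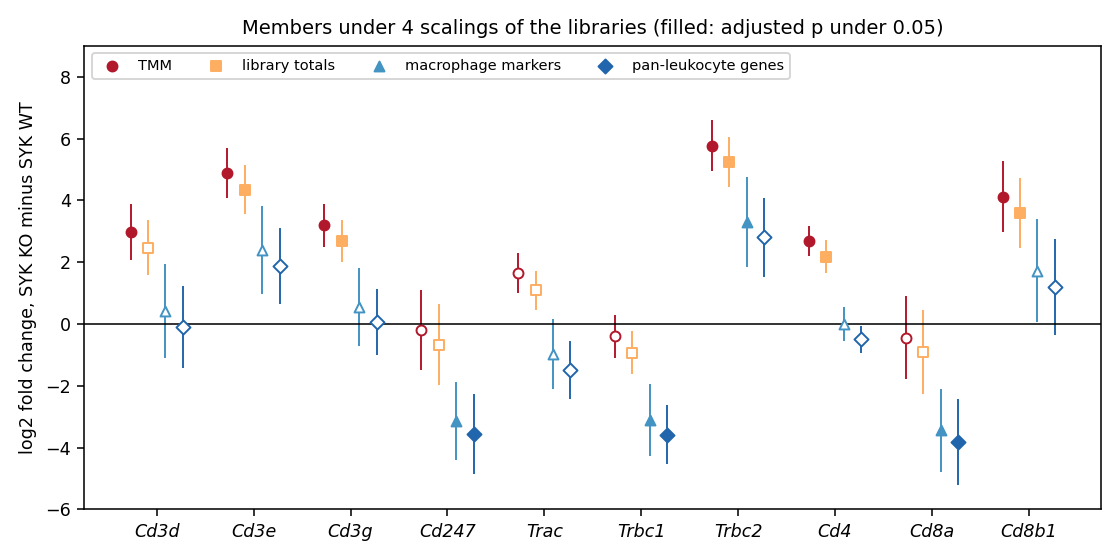
Log2 fold change, SYK KO minus SYK WT, of each receptor and coreceptor gene with its standard error, under 4 ways of scaling the libraries; filled symbols passed an adjusted p under 0.05. The blue symbols (macrophage and pan-leukocyte scaling) lie well below the red ones (TMM) for every gene, and Trbc2 stays above 0 under all 4.

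Genes of gamma-delta receptors were scarce. Trdc, the delta constant gene, had 24, 13, 5 and 0 counts in M7, M8, M9 and M10, with both SYK WT libraries above both SYK KO libraries and a log2 fold change of -2.44 (adjusted p = 0.142) that did not pass. The gamma constant genes in the table had few counts: Tcrg-C1 had 9 in M10 alone, Tcrg-C2 had 2 in M8 and 3 in M9, and Tcrg-C4 had 1 in M9. Variable, diversity and joining segments were nearly empty, with counts in 18 of 246 rows that summed to 5, 6, 18 and 5 in the 4 libraries. Of these, beta variable segments gave 0, 2, 13 and 4 counts, and none of the 60 alpha joining, 14 beta joining and 2 beta diversity rows had a count. A statement on the rearranged receptors was therefore not possible at this depth.

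Of 20 genes for signalling next to the receptor, 12 were tested, of which 6 were higher and 2 lower. Over all genes these shares were 22.7% and 16.7%. The list's median log2 fold change was 0.48. Lck and Zap70 were not among the genes that rose. Lck had 134, 94, 84 and 105 counts (log2 fold change 0.17, adjusted p = 0.750). Zap70 had 124 and 164 counts in M7 and M8 and 34 and 27 in M9 and M10, and fell by 1.84 on the log2 scale (adjusted p = 0.0175), as did Plcg1, the phospholipase C that the receptor activates (-1.54, adjusted p = 0.00148). Among the genes that rose were Grap2 and Lcp2, encoding the adaptors Gads and SLP-76 (4.55 and 3.62), the phosphatase Ptpn22 (2.06), Csk, which restrains Src-family kinases (1.13), and Fyn, a Src-family kinase (0.69). Without M7 or without M8, Zap70 lost its call (adjusted p = 0.0738 and 0.259), as did Fyn (adjusted p = 0.0978 and 0.225). Fyn also lost it with library totals as the scale (adjusted p = 0.528). Under macrophage scaling, where 86.4% of all genes were lower, Fyn (-2.02, adjusted p = 0.000159) and Csk (-1.60, adjusted p = 0.00267) were called lower. Grap2 was still called higher there (1.85, adjusted p = 0.0210). Under leukocyte scaling, where 90.4% were lower, Fyn, Csk and Ptpn22 (-1.17, adjusted p = 0.0329) were called lower. Several of these genes are also transcribed in myeloid cells or B cells. Lat, the membrane scaffold of the receptor signal, had 4, 15, 8 and 7 counts, and Themis, a T cell signalling protein, 2, 4, 11 and 0. Both were under the filter, and their counts overlapped between groups.

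Of 18 genes for T cell surface, costimulatory and checkpoint receptors, 16 were tested, of which 10 were higher and 1 lower. The list's median log2 fold change was 2.43. Of all genes, 22.7% were higher and 16.7% lower. Cd28, Pdcd1, Cd5 and Cd6, named below, passed the filter on low counts only through the SYK KO libraries. The count of calls and the median therefore do not support a difference of the list as a whole. Cd28, the main costimulatory receptor, had 8, 7, 102 and 62 counts (log2 fold change 3.83, adjusted p = 0.00390), and Pdcd1, encoding PD-1, had 7, 5, 27 and 45 (3.0, adjusted p = 0.0184). Cd6 (4.45), Cd2 (3.05) and Cd5 (2.91), which are surface glycoproteins of T cells, also rose, as did the lymph node homing receptor Ccr7 (3.39), the cytokine receptor chains Il7r (3.0) and Il2ra (1.95), and Lag3 (1.30). Without M7 or without M8, Cd2, Cd5, Cd6, Pdcd1, Lag3 and Il2ra lost their calls, at adjusted p-values from 0.0771 for Cd2 to 0.410 for Cd5, and Cd5 also lost it by DESeq2 (0.0688) and with library totals as the scale (0.0532). With library totals Lag3 (0.100) and Il2ra (0.0666) were lost as well. Lag3 was called lower under macrophage scaling (-1.39, adjusted p = 0.0474) and under leukocyte scaling (-1.88, adjusted p = 0.00281). Of all genes, 86.4% and 90.4% were lower under these scalings. Cd28, Ccr7 and Il7r passed without any single library. Ctla4, an inhibitory relative of Cd28, had 6, 10, 12 and 18 counts (1.31, adjusted p = 0.215). Thy1, which fibroblasts express as well as T cells, fell by 1.32 on the log2 scale, with 418 and 420 counts in M7 and M8 and 118 and 133 in M9 and M10. Without M8 its adjusted p was 0.0951. Ccr7 is also a marker of activated dendritic cells and is on the dendritic cell list below.

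Of 12 transcription factors of T cells, 8 were tested, 3 were higher, beside 22.7% of all genes, and 0 lower, and the median log2 fold change was 0.79 (by DESeq2 also 3 and 0, and 0 lower at an unadjusted p under 0.05). Runx3, which acts in cytotoxic T cells and in myeloid cells (2.90), Gata3, a factor of T helper cells (2.82), and Lef1, a partner of Wnt signalling (2.11), rose. Gata3, with 5 and 7 counts in M7 and M8, passed the filter on low counts only through the SYK KO libraries. Gata3 lost its call without M7 (adjusted p = 0.267) or without M8 (0.212), and Lef1 without M8 (0.0926). Tcf7, which encodes TCF-1, had 596, 529, 417 and 347 counts (-0.14, adjusted p = 0.557). Foxp3, the factor of regulatory T cells, had 8, 20, 16 and 15 counts (0.53, adjusted p = 0.608). Bcl11b, which T cells need to keep their identity, had 2, 0, 10 and 0 counts and was not tested. M10, where Bcl11b, Themis, Cd247 and Cd8a were all at 0 counts, had the most counts of Cd3e, Trbc2 and Cd8b1.

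**Figure D4:**
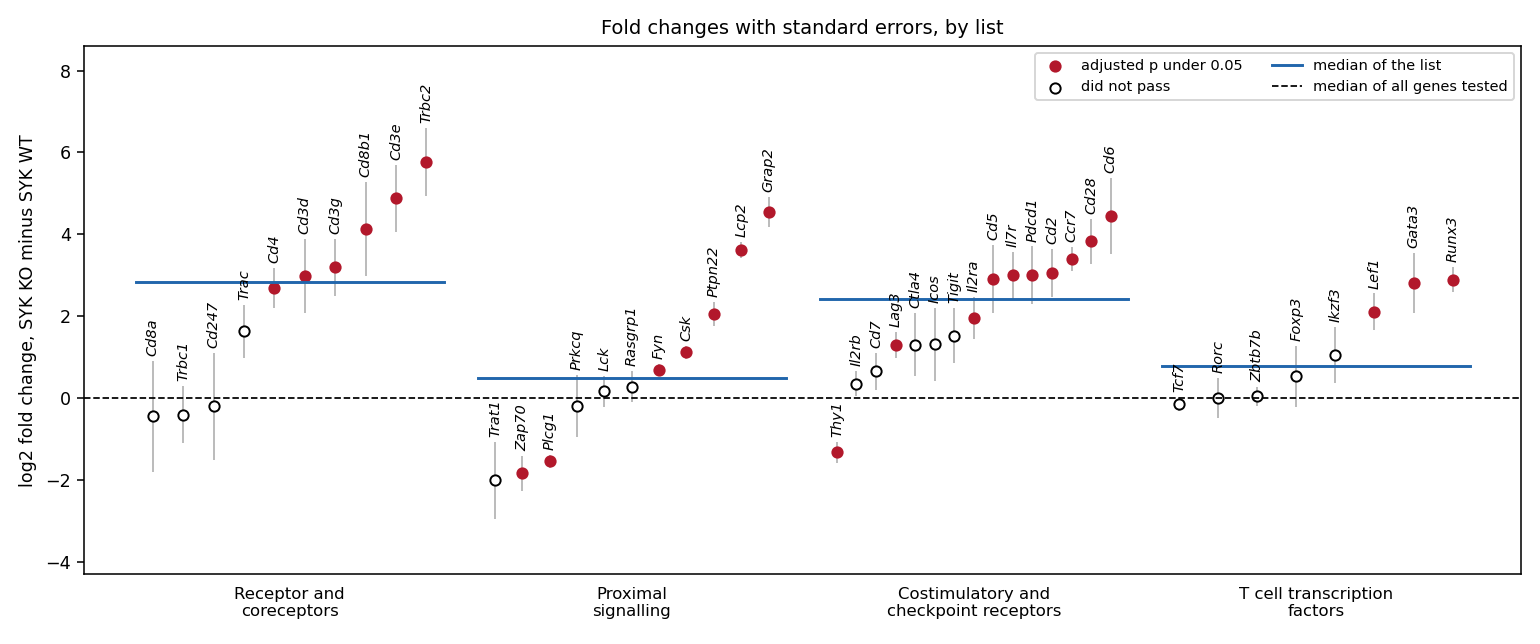
Log2 fold change, SYK KO minus SYK WT, with standard error, of the receptor and coreceptor genes and of the tested genes of 3 related lists that are reported here; filled red points passed an adjusted p under 0.05, open points did not, blue lines are list medians and the dashed line is the median of all genes tested. The signalling list spreads from Trat1, an adaptor of the receptor complex, at -2.00 to Grap2 at 4.55, while the surface receptor list lies mostly above 0 with Thy1 as its low end.

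Beside the receptor genes, markers of other leukocytes also moved. Over all genes tested, 22.7% were called higher and 16.7% lower. All 10 macrophage markers were higher in SYK KO (median log2 fold change 2.82), among them Csf1r (3885, 2238, 16550 and 11302 counts) and Adgre1, which encodes F4/80 (1471, 683, 6538 and 3406). All 6 pan-leukocyte genes were higher (median 3.47), among them Ptprc, encoding CD45 (885, 573, 5109 and 3542 counts), and Cd53 (1369, 981, 12999 and 5899), and so were 5 of 5 neutrophil markers tested (median 3.12), with S100a8 at 122, 153, 1365 and 485 counts and S100a9 at 235, 406, 4630 and 1744. Of the markers of dendritic cells type 2, 7 of 8 were higher (median 3.65), among them Cd209a with 31, 52, 657 and 486 counts and Clec10a with 1068, 761, 2120 and 1474. Of those of type 1, 5 of 8 were higher (median 2.66), among them Xcr1 with 13, 2, 119 and 86 counts. Clec9a, with 6, 4, 14 and 22 counts, did not pass (adjusted p = 0.0582). The part of these cells in the changes of receptor genes was not tested.

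Lymphoid lists were at low levels. Beside the 22.7% of all genes called higher and 16.7% called lower, 1 or 2 called genes in a short list are not read as a result of that list. Of the B cell list, 5 genes were tested and 2 were higher (median 1.19), namely Cd79b with 13, 6, 143 and 96 counts (log2 fold change 4.05, adjusted p = 0.00300) and Cd22 with 124, 54, 459 and 325 (2.57, adjusted p = 0.00443). Cd79a had 18, 14, 25 and 25 counts (1.06, adjusted p = 0.202). Of the NK list, 5 were tested and 2 were higher (median 0.34), Klrk1 with 39, 18, 205 and 73 counts (2.68, adjusted p = 0.0165) and Klrd1 with 11, 8, 47 and 26 (2.33, adjusted p = 0.0306), while the defining NK receptors Ncr1 (19, 6, 9 and 1 counts) and Klrb1c (22, 17, 27 and 9) overlapped between groups. Summed NK levels were 10.4 and 13.4 CPM in M7 and M8 and 22.3 and 17.1 in M9 and M10. Of the plasmacytoid dendritic cell list, 3 genes were tested and 2 were higher (median 2.50), which passed the filter only through the SYK KO libraries. The counts of the defining markers Siglech (10, 2, 8 and 8) and Ccr9 (9, 9, 10 and 6), which were under the filter, stayed at 10 or fewer. The list summed to 499 and 519 CPM in M7 and M8 and to 341 and 475 CPM in M9 and M10. Nearly all of that sum was Tcf4 (498, 518, 338 and 472 CPM). In the other direction, 5 of 8 fibroblast markers were lower (median -1.44), among them Col1a1 with 155298, 163208, 37306 and 45440 counts, beside Col1a2 with 6800, 4143, 1379 and 1510. Of the neuroblastoma list, 4 genes were tested and 1 was higher (median 0.23): Mycn, with 609, 525, 604 and 799 counts (0.74, adjusted p = 0.0415). Hand2, another gene of that list, had 7182, 7403, 3666 and 5257 counts, whereas Th and Dbh were at 0 counts in all 4 libraries and Phox2a had 2, 8, 3 and 0.

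**Figure D5:**
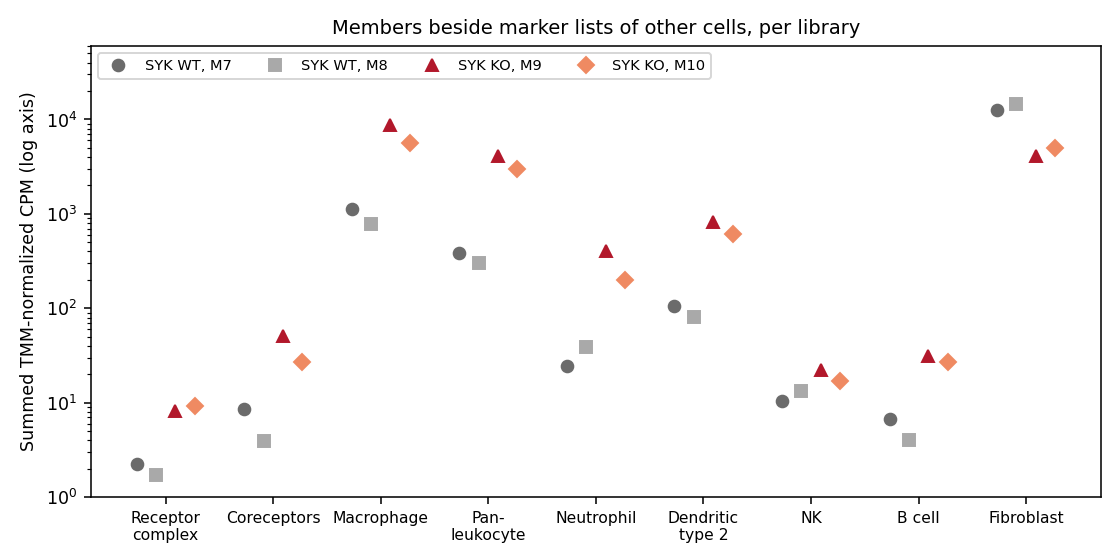
Summed level (TMM-normalized CPM, logarithmic axis) of the 7 receptor complex genes, the 3 coreceptors and 7 marker lists in each library. Every list but the fibroblast one is higher in both SYK KO libraries than in both SYK WT libraries, and the receptor complex lies lowest of all in each library.

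The genes nearest in pattern to the summed receptor complex over the 4 libraries, by Euclidean distance of centred log2 levels, were Cd209b (27, 19, 70 and 74 counts; distance 0.0904), Tep1 (492, 374, 1380 and 1383; 0.102), Gm45867 (13, 8, 31 and 35; 0.167), Ngfr (16, 12, 50 and 53; 0.176) and Scand1 (533, 426, 1600 and 1470; 0.178), where the median gene lay at 2.28. They share with it a ratio between groups of about the same size, log2 fold changes of 2.07 to 2.30, and near-equal levels within each group.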

How the data were processed

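RNA was measured by polyA-selected sequencing of 4 macrophage libraries, 2 labelled SYK WT and 2 labelled SYK KO. The authors deposited 1 table of raw counts per Ensembl gene, with no normalization. Per the labels and the study's methods, reads were mapped to mm10, and the submitters' processing notes name STAR 2.6.1d, Salmon 1.4.0, SAMtools 1.9, Picard 2.26 and MultiQC 1.11. Per the methods, Salmon quantified the reads in a bcbio pipeline; how its estimates became the whole numbers deposited, and whether strand was used, is not given in the sources used here. The methods describe single reads and triplicates, the labels paired reads and 2 libraries a group.

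Gene symbols came from GENCODE M21, which held 54495 of the 54532 genes. Genes were filtered with filterByExpr (minimum count 10, minimum total 15), scaled by TMM and tested with edgeR 4.0.16 (quasi-likelihood test, R 4.3.3), with Benjamini-Hochberg adjustment over all 16451 genes tested and a threshold of 0.05. All adjusted p-values are from this test unless DESeq2 (1.42.0) is named. CPM are TMM-normalized, per kb of merged exons where stated. Shares have exact binomial intervals, and pooled ratios exact intervals conditional on the total. With no molecular identifiers, intervals and the limit of 3 counts cover counting error only. Library totals ran from 20755886 to 23518045, and 3 counts equal 0.109 to 0.163 CPM. Replicates differed beyond sampling noise (chi-square per degree of freedom 50.6 in SYK WT and 168 in SYK KO), so none was counted as a duplicate. Scripts were tested on simulated data.

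The 10 genes, the lists and the tests were chosen with earlier results of these data known. Named were the 10 genes, T cell genes set by name (Lck, Zap70, Lat, Themis, Cd28, Pdcd1, Ctla4, Foxp3, Tcf7 and Bcl11b), further list genes past the threshold, the first 2 genes of each cell type list, Syk and the 5 genes nearest in pattern. Pou2f1, Gm48719, Lyz2, Trdc, the gamma constant genes, Trat1, Th, Dbh, Mycn, Hand2, Cd79b, Cd22, Klrk1, Klrd1 and Tcf4 were named after their values were seen. Alternatives were other normalizations, filters, scalings, DESeq2, a fold threshold, removal of mitochondrial and rRNA-like genes, and leaving out each library. Some genes and a sequence that fall under these rules are not reported here; genes still count in their lists.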

Additional observations from a re-analysis of the deposited data

How the results depend on the processing

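No paired analysis was possible because the groups share no replicate numbers. With 2 libraries a group and counts under 60 for 9 of the 10 genes, leaving out a library changed calls: 2 to 5 genes of the set stayed called higher and 0 to 2 were called lower, 4 to 12 surface receptor genes and 1 to 3 transcription factors were called, and over all genes 1478 to 5010 were called higher and 807 to 4745 lower. Without M7, or without M8, Trbc2 and Cd4 were the 2 genes of the set called higher; without M9, Cd247 and Cd8a were called lower; without M10, Cd8b1 was not tested. A library left alone in its group is assumed to vary like the other group. Trbc2 (log2 fold change 5.38 to 6.01) and Cd4 (2.06 to 3.49) passed in 4 of 4 such fits. DESeq2 called 4 genes of the set higher (19.5% of 18346 genes). A minimum of 10 counts in every library left Cd4 as the 1 gene of the set tested, called higher, and 6 surface receptor genes called.

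Scaling by library totals gave 1677 genes higher and 5411 lower, so 23.7% of calls were higher against 57.6% in the main analysis, shifted the median by -0.53, and gave a receptor sum of 1.59 (log2). Requiring a change of 1 or more on the log2 scale, in either direction, left 2426 genes higher. Macrophage scaling gave 147 genes higher and 14220 lower (1.02% of calls higher), 1 gene of the set higher and 3 lower, and 4 surface receptor genes called; pan-leukocyte scaling gave 93 and 14873 (0.621%), 0 and 3, and 4.

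Signs changed as follows. Under macrophage scaling the log2 values were -0.52 for the receptor sum, -0.068 for the coreceptor sum, -0.98 for Trac, -2.46 for Lck, -1.37 for Ctla4, -2.27 for Foxp3, -2.02 for Fyn, -1.60 for Csk, -0.72 for Ptpn22, -1.39 for Lag3, -0.69 for Il2ra and -0.46 for Lef1. Under pan-leukocyte scaling they were -1.02 for the receptor sum, -0.57 for the coreceptor sum, -0.090 for Cd3d, -1.49 for Trac, -0.50 for Cd4, -2.96 for Lck, -0.076 for Pdcd1, -1.84 for Ctla4, -2.70 for Foxp3, -2.50 for Fyn, -2.08 for Csk, -1.17 for Ptpn22, -0.067 for Cd2, -0.13 for Cd5, -1.88 for Lag3, -0.20 for Il7r, -1.19 for Il2ra, -0.98 for Lef1, -0.30 for Gata3, -0.33 for Runx3 and -0.39 for Syk. Lck (-0.082 to 0.35), Foxp3 (-0.032 to 1.42), Cd247 (-6.54 to 0.78) and Cd8a (-6.17 to 0.55) ranged through 0 when a library was left out. Lck was at -0.38 by library totals, at -0.0072 without M8 and at -0.082 without M10, Foxp3 at -0.032 without M7, Cd247 at 0.78 without M10, and Cd8a at 0.55 without M8 and 0.53 without M10. Fyn, Csk and Lag3, called higher in the main analysis, were called lower under both marker scalings, and Ptpn22 under pan-leukocyte scaling. The sign changes under marker scaling follow from the scaling itself, which lowers all fold changes by about the same amount. The other causes were not tested. Of the single-gene values, 312 kept their direction and side of the threshold, 66 lost the call, 11 gained one and 36 changed sign.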
